A study of Mus musculus with 48 samples.

Results

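Calcineurin is the calcium-dependent phosphatase that cyclosporin A inhibits, and 9 genes of its pathway were followed through ex vivo kidney slices. The 9 genes were Ppp3ca and Ppp3cb, which encode catalytic subunits of calcineurin, Ppp3r1, which encodes its regulatory subunit, the transcription factors Nfatc1, Nfatc2, Nfatc3 and Nfatc4, and the regulators Rcan1 and Rcan2. They were chosen by name, as the rows of the deposited count table whose Ensembl identifiers carry these symbols, and are 9 of 55487 genes in the table.

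Bulk RNA sequencing was performed on 48 libraries of kidney slices. The slices came from male C57BL/6J and DBA/2J mice, inbred strains that are the founders of the BXD mouse panel. Each strain had 8 conditions with 3 libraries each, which makes 16 groups. Slices were kept ex vivo as controls, with tunicamycin (an inhibitor of N-linked glycosylation that stresses the endoplasmic reticulum) or with cyclosporin A (an immunosuppressant), each for 6 h and for 24 h. The remaining slices were kept under normoxia, which the labels call an ischemia model, or under normoxia-hyperoxia, which they call a reperfusion model, and their titles give 24 h. Drug doses, the ages of the mice and the oxygen level of the control slices are not given in the sources used here. The controls belong to the drug arm by their titles, so a difference between arms and an effect of oxygen cannot be told apart in comparisons of the oxygen conditions with controls. The labels number biological replicates and do not say that these slices came from separate mice, so p-values measure the spread between libraries, which may be technical.

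When calcium rises in a cell, calmodulin activates calcineurin, which removes phosphates from NFAT proteins and lets them enter the nucleus. NFAT proteins bind DNA at GGAAA, often beside an AP-1 site, and in T cells they switch on cytokine genes, which is the step that cyclosporin A blocks. RCAN proteins bind calcineurin and can restrain it. In other cells a short transcript of Rcan1, which starts at an internal promoter of the gene, is itself an NFAT target and serves as a readout of calcineurin activity.

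Since Rcan1 had the widest range of the 9 genes, the 250 bases upstream of its RefSeq starts are shown, read 5′ to 3′ on the strand of the gene. Capitals mark GGAAA or its reverse complement TTTCC.

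Rcan1 first start: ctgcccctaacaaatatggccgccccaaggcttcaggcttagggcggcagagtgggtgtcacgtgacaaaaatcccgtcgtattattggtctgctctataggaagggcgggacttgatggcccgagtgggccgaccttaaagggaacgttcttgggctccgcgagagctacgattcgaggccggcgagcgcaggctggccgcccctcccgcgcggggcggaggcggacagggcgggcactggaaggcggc

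Rcan1 internal start: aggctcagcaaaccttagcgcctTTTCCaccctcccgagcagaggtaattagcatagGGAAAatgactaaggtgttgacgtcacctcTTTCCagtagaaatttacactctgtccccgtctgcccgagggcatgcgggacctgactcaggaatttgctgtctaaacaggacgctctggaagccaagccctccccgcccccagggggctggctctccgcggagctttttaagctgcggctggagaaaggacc

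The first window is chr16:92466170-92466419 and the second chr16:92400079-92400328, both on the minus strand of GRCm38.p6, and both lie inside the span of Rcan1 and outside its annotated exons. The internal window held 3 matches to GGAAA on either strand and 1 match to TGANTCA, a form of the AP-1 site, that did not overlap them. The window of the first start held 0 of either. Of 32851 RefSeq promoter windows of 250 bases, 55.57% held at least 1 GGAAA, 6.39% held 3 or more, and 6.75% held TGANTCA. Upstream windows were matched for 7 of the 9 genes, 12 windows in all, and 1 window each of Nfatc2, Ppp3cb and Nfatc4 also held 3 GGAAA matches. A window of Rcan2, chr17:43952749-43952998, was the other of the 12 with a TGANTCA match, and it held 0 GGAAA. A match is a run of letters, not a shown binding site, and the counts per gene do not separate transcripts by their start.

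Libraries held 5619309 to 25137581 counts. The shallowest was DBA/2J normoxia-hyperoxia replicate 2, and the next held 12384733. Mitochondrial genes took 3.108% to 25.648% of the counts. Kidney markers were present in every library, with a summed level of proximal tubule markers of 115.8 to 11890 CPM (counts of a gene scaled to the size of its library), while skeletal muscle, adipocyte and adrenal markers summed to at most 1.689, 0.2844 and 0.3036 CPM. T cell markers (Cd3e, Cd3d, Cd3g, Lck and Trac) summed to 1.908 to 23.36 CPM. In such bulk samples fewer cells of a type and less RNA per cell cannot be told apart.

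Levels are given as CPM scaled per library with TMM (trimmed mean of M-values) factors. The calcineurin subunits varied less between groups than Rcan1 and Rcan2. Ppp3ca, on chromosome 3 (136670124 to 136937727, plus strand, GENCODE M21), had a median of 58.6 CPM and ranged from 47.3 to 67.6 CPM over the 48 libraries. Its highest group mean was 1.25 times its lowest, and no neighbouring groups in the order of 16 group means had libraries that stood wholly apart. Ppp3cb (chromosome 14, 20499364 to 20546573, minus strand) had a median of 35.4 CPM, with a range of 28.04 to 45.2 CPM. Its group means had a 1.46-fold span. Ppp3r1 (chromosome 11, 17159263 to 17200375, plus strand) had a median of 54.2 CPM, with a range of 45.2 to 67.2 CPM. Per kilobase of exon, Ppp3r1 was highest of the subunits at 16.8 CPM, followed by Ppp3ca at 5.87 and Ppp3cb at 4.02 CPM per kb. Exons of Ppp3r1 overlap those of Wdr92 on the same strand, and exons of Nfatc3 overlap those of Esrp2 on the opposite strand. The strand setting of the counting is not given in the sources used here, so part of the counts of Ppp3r1 and Nfatc3 is uncertain.

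Among the transcription factors, Nfatc3 (chromosome 8, 106058840 to 106130537, plus strand) had the highest median per length, 3.46 CPM per kb, and Nfatc4 (chromosome 14, 55823144 to 55833943, plus strand) the lowest, 0.438 CPM per kb. Between them stood Nfatc1 (chromosome 18, 80606205 to 80713071, minus strand) at 2.45 and Nfatc2 (chromosome 2, 168476410 to 168601657, minus strand) at 1.07 CPM per kb. In CPM, Nfatc3 ranged from 32.5 to 47.99 over the libraries and its highest group mean was 1.27 times its lowest. Nfatc1 ranged from 11.3 to 27.5 CPM, a 1.79-fold span of group means. Nfatc2, the best known NFAT of T cells, ranged from 5.74 to 25.8 CPM, a 3.07-fold span. Nfatc4 ranged from 1.15 to 5.54 CPM, so its 2.85-fold span rests on few reads, 15 to 138 counts per library.

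The regulators varied most. Rcan1 (chromosome 16, 92391953 to 92470867, minus strand) had a median of 290.2 CPM, or 94.1 CPM per kb, and ranged from 49.5 to 1318 CPM. Its highest group mean was 22.3 times its lowest. Rcan2 (chromosome 17, 43801351 to 44039516, plus strand) had a median of 24.4 CPM, or 5.58 CPM per kb, and ranged from 8.53 to 43.8 CPM, a 3.54-fold span.

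**Figure D1:**
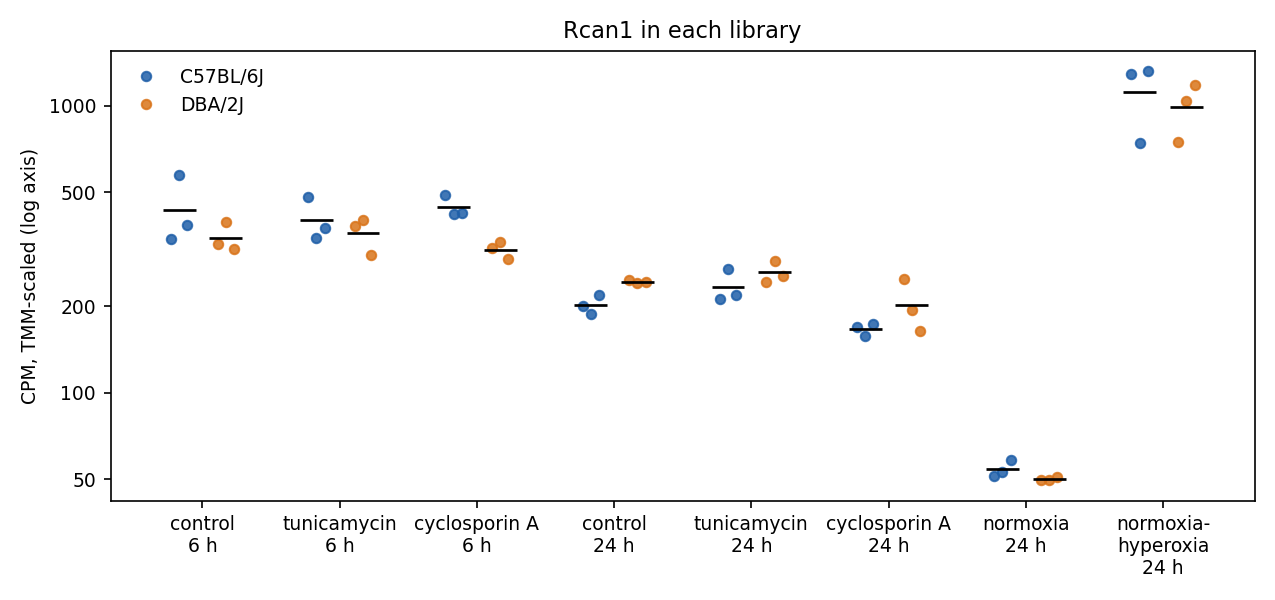
Rcan1 in each of the 48 libraries, as TMM-scaled CPM on a log axis, by condition; points are libraries, blue for C57BL/6J and orange for DBA/2J, and bars are means of 3. The 6 normoxia libraries sit at 49.5 to 58.1 CPM, below all others, and the 6 normoxia-hyperoxia libraries at 744 to 1318 CPM, above all others.

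The 16 group means of Rcan1 fell into ordered steps. At the top stood C57BL/6J normoxia-hyperoxia at 1117 ± 324 CPM (SD, n = 3) and DBA/2J normoxia-hyperoxia at 991 ± 222 CPM, whose libraries overlapped. The 6 h groups of both strains came next, with controls at 433 ± 122 CPM in C57BL/6J and, for DBA/2J, 346 ± 42.01 CPM. The 24 h control and drug groups followed, with controls at 203 ± 15.4 and 243 ± 2.55 CPM. At the bottom stood normoxia, at 54.2 ± 3.49 CPM in C57BL/6J and, for DBA/2J, 49.99 ± 0.768 CPM. Of the 15 neighbouring pairs in this order, 4 had libraries that did not overlap.

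Among the catalytic subunits, Ppp3ca made up 33.8% to 45.7% of the summed CPM per kb in the 16 group means. Ppp3cb made up 21.8% to 30.8% and Ppp3cc, the remaining catalytic gene, 28.2% to 40.25%. In some groups the share of Ppp3cc was above that of Ppp3ca, as with cyclosporin A at 24 h in DBA/2J (39.1% and 33.8%). The composition of the NFAT and RCAN families, each gene as a share of its family's summed CPM per kb, showed the same genes from another side. Nfatc3 was the largest NFAT share in the C57BL/6J 24 h controls, at 49.4% ± 1.53 (SD, n = 3), beside 37.4% ± 0.373 for Nfatc1, 8.43% ± 1.01 for Nfatc2 and 4.81% ± 1.16 for Nfatc4. In DBA/2J normoxia-hyperoxia Nfatc1 stood at 38.5% ± 3.40 and Nfatc3 at 36.9% ± 2.72, and these shares did not differ by more than their spread. Rcan1 made up 84.5% ± 0.703 of the RCAN family in the C57BL/6J 24 h controls, 54.8% ± 1.89 in C57BL/6J normoxia and 96.2% ± 0.810 in C57BL/6J normoxia-hyperoxia. In C57BL/6J normoxia the rest was shared by Rcan2 at 25.4% ± 1.62 and Rcan3, the remaining gene of the family, at 19.8% ± 0.647. In DBA/2J normoxia the order of these was the reverse, with Rcan2 at 13.5% ± 2.14 and Rcan3 at 24.2% ± 0.296.

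**Figure D2:**
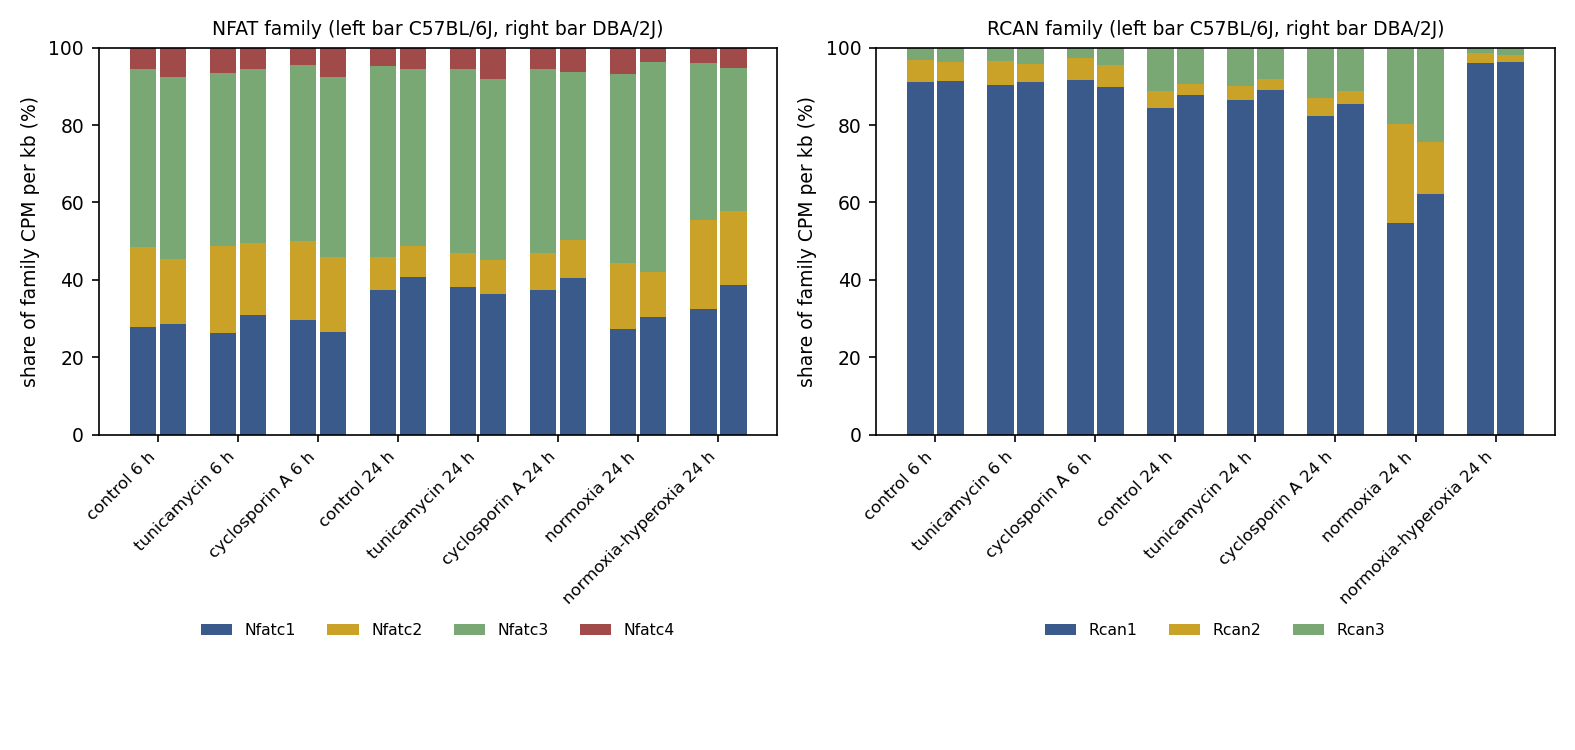
Mean share of each gene in the summed CPM per kb of its family, in percent, for the 4 NFAT genes (left) and the 3 RCAN genes (right), by condition; in each pair of bars the left is C57BL/6J and the right DBA/2J (means of 3 libraries). Rcan1 dominates its family except under normoxia, where its mean share drops to 54.8% and 62.3%.

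Cyclosporin A was compared with controls at each time, since the 9 genes are its pathway. After 24 h none of the 9 genes changed by edgeR's quasi-likelihood test over both strains at a Benjamini-Hochberg adjusted p under 0.05, and 0% of the 16887 genes tested did. At an unadjusted p under 0.05, 2 of the 9 and 1107 of all genes passed, and DESeq2 called 0 of the 9 and 22 of all genes. Rcan1 was at 200, 188 and 219 CPM in the C57BL/6J controls and at 169, 157 and 173 CPM with cyclosporin A. In DBA/2J it was at 246, 241 and 242 CPM in controls and at 249, 194 and 164 CPM with the drug. The C57BL/6J libraries did not overlap, with the drug lower, while 1 of the 3 DBA/2J drug libraries was above all of its controls.

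The fitted difference of Rcan1 over both strains was −0.27 on the log2 scale (95% interval −0.45 to −0.09, adjusted p = 0.656 by edgeR). It was −0.28 in C57BL/6J and, for DBA/2J, −0.26, and the difference between strains was 0.02 (adjusted p = 1). Nfatc2 had the other unadjusted p under 0.05, with a difference of 0.29 (95% interval 0.01 to 0.57, adjusted p = 0.746 by edgeR). For the target of the drug itself the intervals were narrow, from −0.21 to 0.09 for Ppp3ca, −0.25 to 0.02 for Ppp3cb and −0.18 to 0.07 for Ppp3r1. Nfatc4, with the fewest reads, had the widest, from −0.26 to 0.81. For 0 of the 9 genes did the drug and control libraries stand apart in both strains, against 1.29% of all genes tested.

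At 6 h of cyclosporin A 0 of the 9 genes and 0% of 16538 genes tested passed edgeR's adjusted threshold, where 0 of the 9 and 734 of all genes had an unadjusted p under 0.05. DESeq2 called 0 of the 9 and 51 of all genes. Rcan1 was at 343, 571 and 385 CPM in C57BL/6J controls and 489, 419 and 424 CPM with the drug, and at 329, 394 and 315 CPM against 318, 334 and 292 CPM in DBA/2J. These groups overlapped in both strains (0 of the 9 genes stood apart in both, against 0.562% of all genes), and the log2 difference was −0.06 with a 95% interval of −0.32 to 0.20. The intervals of the calcineurin subunits lay between −0.12 and 0.20.

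Tunicamycin was the other drug. At 24 h edgeR called 1.38% of 16905 genes and 0 of the 9, with 2 of the 9 and 2174 of all genes at an unadjusted p under 0.05, and DESeq2 called 0 of the 9 and 527 of all genes. Those 2 were Rcan1, with a log2 difference of 0.16 (95% interval 0.02 to 0.29, adjusted p = 0.302), and Ppp3cb, with −0.12 (−0.22 to −0.01, adjusted p = 0.347). At 6 h edgeR called 0% of 16551 genes and 0 of the 9, with 0 of the 9 and 281 of all genes at an unadjusted p under 0.05, and DESeq2 called 0 of the 9 and 0 of all genes. For 0 of the 9 did tunicamycin and control libraries stand apart in both strains, against 2.86% of all genes at 24 h and 0.163% at 6 h. Rcan1 was thus lower in the fitted mean with cyclosporin A and higher with tunicamycin at 24 h, and the comparisons share their controls and neither passed the adjusted threshold.

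**Figure D3:**
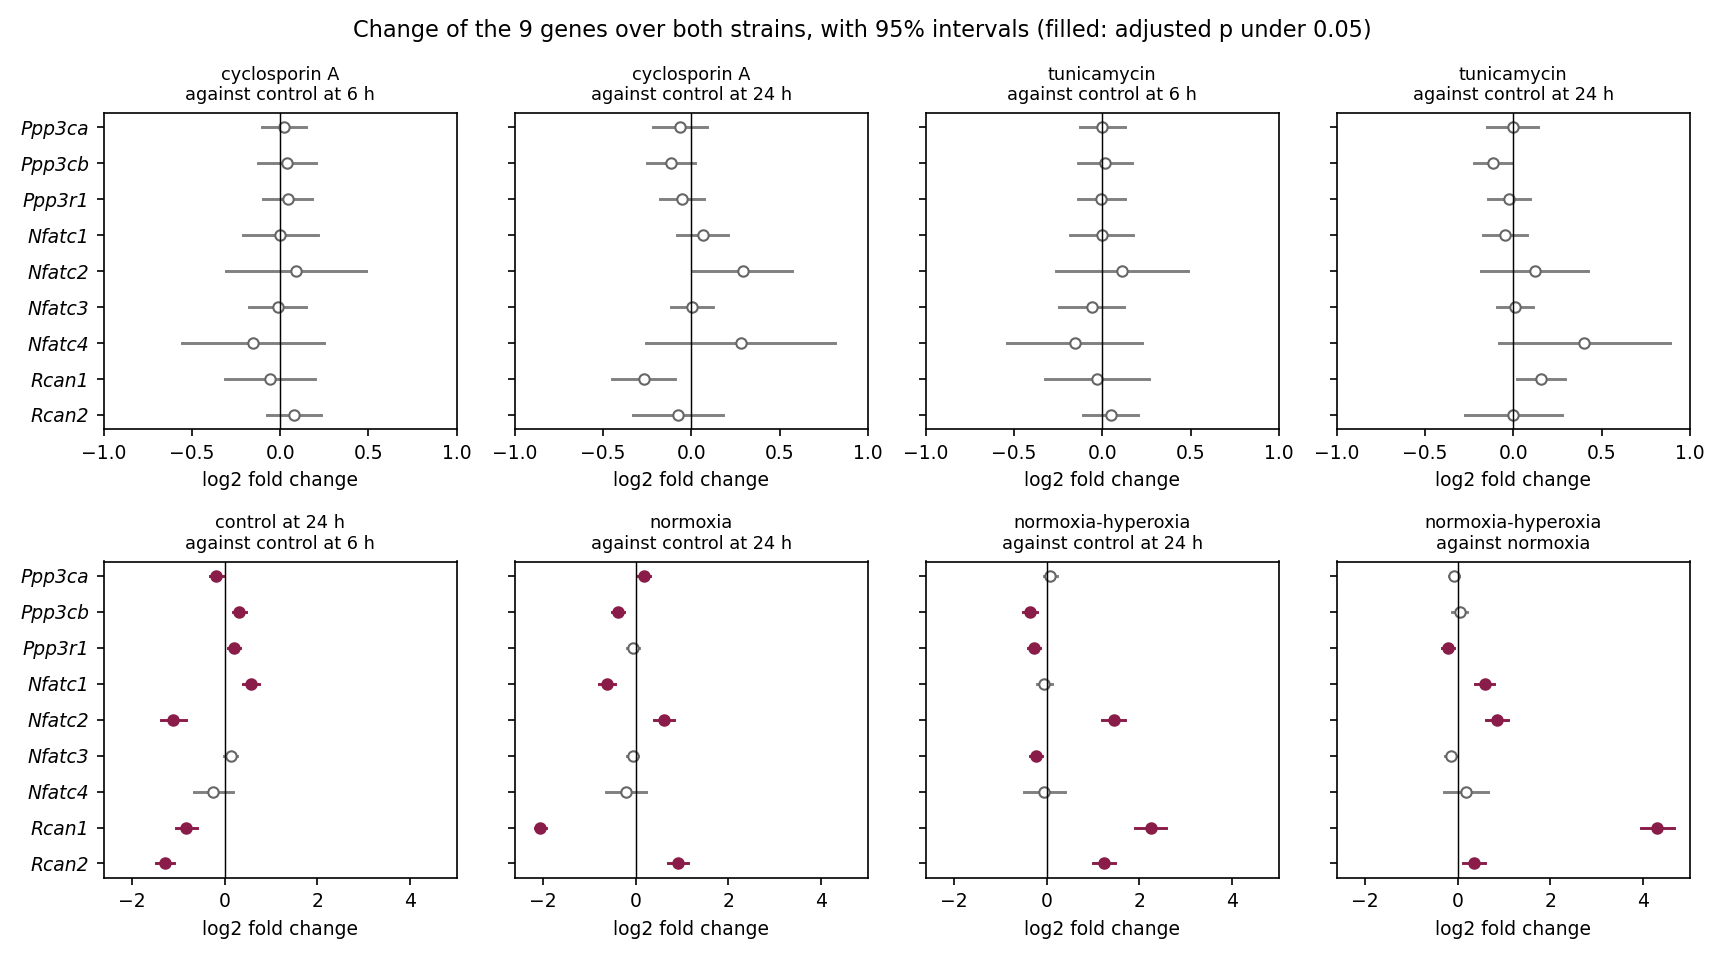
Log2 fold changes of the 9 genes over both strains in the 8 comparisons, with 95% intervals; filled points passed an adjusted p under 0.05 by edgeR. No point is filled in the 4 drug panels, whose axis runs from −1 to 1, while Rcan1 reaches −2.05, 2.24 and 4.30 in the oxygen panels, whose axis runs from −2.6 to 5.

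Time in culture was compared in the controls. Between the 6 h and 24 h controls 7 of the 9 genes changed, against 72% of the 16962 genes tested, so the share is near that of all genes. Higher at 24 h were 3 of the 9 and 34.7% of all genes, and lower were 4 of the 9 and 37.4%. Rcan2, Nfatc2, Rcan1 and Ppp3ca fell, and Nfatc1, Ppp3cb and Ppp3r1 rose. Rcan2 went from 34.01, 40.3 and 35.4 CPM at 6 h to 12.8, 15.3 and 14.8 CPM at 24 h in C57BL/6J, and from 27.4, 24.5 and 25.3 to 9.95, 11.02 and 13.6 CPM in DBA/2J. No library of one time overlapped with the other. The log2 fold change was −1.28 (SE 0.09, adjusted p = 1.02e-08 by edgeR), or 0.412 times the 6 h level.

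Nfatc2 behaved alike, from 13.6, 15.6 and 20.2 to 6.61, 8.05 and 6.46 CPM in C57BL/6J and, for DBA/2J, from 15.5, 12 and 10.6 to 7.25, 6.37 and 6.22 CPM. Its log2 fold change was −1.10 (SE 0.13, adjusted p = 1.75e-06). Rcan1 fell by 0.82 on the log2 scale (SE 0.11, adjusted p = 9.25e-06), to 0.566 times its 6 h level. Its change was −1.11 in C57BL/6J and, for DBA/2J, −0.53, and the difference between strains, 0.58, did not pass the threshold (adjusted p = 0.27). Markers of T cells, which express Nfatc2, were lower too, from a sum of 8.33 to 2.52 CPM in C57BL/6J and, for DBA/2J, from 16.1 to 8.35 CPM. Of the 5 T cell markers 4 fell and 0 rose, where 37.4% of all genes fell and 34.7% rose. Markers with few 24 h reads may have entered the test only through the 6 h libraries. Sums of tubule markers were also lower at 24 h, those of proximal tubule from 3588 to 401 in C57BL/6J and from 5150 to 1094 in DBA/2J, and those of the distal convoluted tubule from 3754 to 689 and from 3515 to 1288. The mitochondrial share went from 15.4% to 6.83% and from 8.16% to 3.52%. The part of these in the changes of the 9 genes was not tested.

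Nfatc1 rose instead, from 13.2, 16.2 and 16.8 to 21.99, 22.2 and 21.9 CPM in C57BL/6J and, for DBA/2J, from 13.9, 14.8 and 16.5 to 23.5, 24.3 and 23.4 CPM. The 24 h libraries were all above the 6 h libraries, with a log2 fold change of 0.57 (SE 0.08, adjusted p = 1.04e-05). Ppp3cb rose by 0.32 (adjusted p = 7.37e-04) and Ppp3r1 by 0.20 (adjusted p = 0.0108), a call lost without the filter on low counts (adjusted p = 0.0548). Ppp3ca had a change of −0.18 (adjusted p = 0.0261), and under scaling by library totals alone its sign turned, to 0.04. Without the filter its adjusted p was 0.0516. Its call was also lost in 6 of 12 fits that left out a library (C57BL/6J 6 h replicate 3, DBA/2J 6 h replicate 3, C57BL/6J 24 h replicates 1 and 2, and DBA/2J 24 h replicates 2 and 3), with adjusted p up to 0.0794. That scaling moved the median of all genes from −0.02 to 0.19 in this comparison. Nfatc3, at 0.13 (adjusted p = 0.0982), and Nfatc4, at −0.24 (adjusted p = 0.287), did not pass the threshold. With library totals Nfatc3 passed, at 0.34. For 6 of the 9 genes (Rcan1, Rcan2, Nfatc1, Nfatc2, Nfatc3 and Ppp3cb) the libraries of the 2 times did not overlap in either strain, against 54.2% of all genes.

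**Figure D4:**
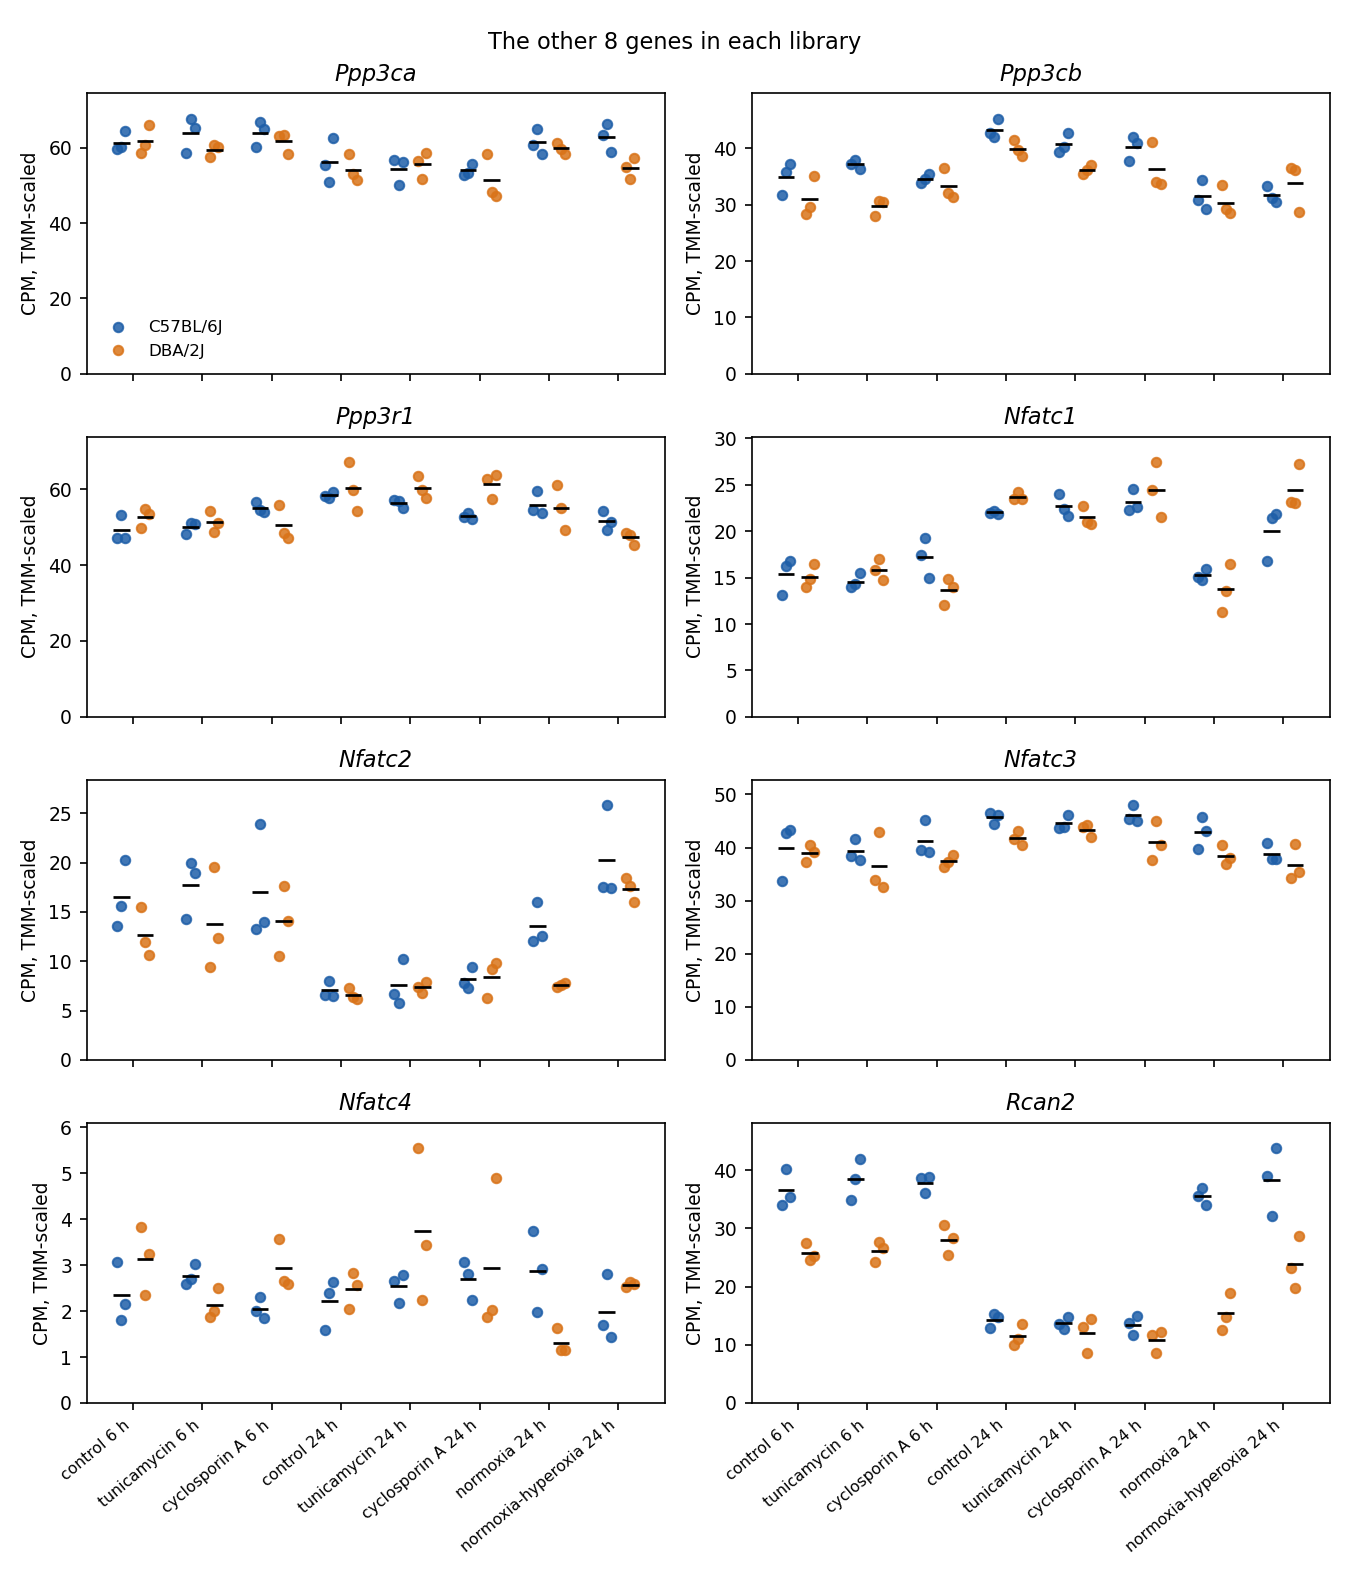
The other 8 genes in each library, as TMM-scaled CPM on linear axes from 0, by condition; points are libraries, blue for C57BL/6J and orange for DBA/2J, and bars are means of 3. Ppp3ca stays between 47.3 and 67.6 CPM, while Rcan2 and Nfatc2 are low in every 24 h control and drug group and Nfatc1 is high there. Nfatc2 is also low in DBA/2J normoxia, and Nfatc1 is also high in DBA/2J normoxia-hyperoxia.

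The largest differences among the 9 genes came in the oxygen arm. Normoxia slices were compared with the 24 h controls, where 6 of the 9 genes changed, 3 up and 3 down, against 82% of 17375 genes tested (42.4% up and 39.7% down). Rcan1 was at 51.4, 53.03 and 58.1 CPM in C57BL/6J and, for DBA/2J, at 49.6, 49.5 and 50.9 CPM, against controls of 188 CPM or more. All normoxia libraries were below all controls, and Rcan1 fell by 2.05 on the log2 scale (SE 0.05, adjusted p = 1.72e-14 by edgeR), to 0.241 times the control. Its change was −1.90 in C57BL/6J and, for DBA/2J, −2.20, and the difference between strains, −0.30, did not pass the threshold (adjusted p = 0.0624).

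The other regulator moved the opposite way. Rcan2 was at 35.6, 36.9 and 34.02 CPM in C57BL/6J normoxia, against controls of 12.8 to 15.3 CPM, and at 12.5, 14.8 and 18.9 CPM in DBA/2J, where controls of 9.95 to 13.6 CPM overlapped. Its log2 fold change was 0.91 over both strains (adjusted p = 5.99e-07), with 1.32 in C57BL/6J and, for DBA/2J, 0.51. The strain difference of −0.81 passed the threshold (adjusted p = 0.0157), as did 17% of all genes. Nfatc2 rose by 0.61 (adjusted p = 3.56e-05), with 0.94 in C57BL/6J and, for DBA/2J, 0.28 (adjusted p = 0.0901), and its strain difference of −0.66 passed as well (adjusted p = 0.0345). That call was lost in 6 of 12 fits that left out a library, with adjusted p up to 0.094. In C57BL/6J Nfatc2 stood at 12.1, 16.1 and 12.6 CPM under normoxia and in DBA/2J at 7.41, 7.63 and 7.76 CPM, above the 24 h controls in each strain.

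Nfatc1 fell by 0.62 (adjusted p = 4.2e-06) and Ppp3cb fell by 0.39 (adjusted p = 2.06e-05), with normoxia libraries below the controls in both strains. Nfatc1 was at 15.04, 14.8 and 15.97 CPM in C57BL/6J and, for DBA/2J, at 11.3, 13.6 and 16.4 CPM, near its 6 h level. Ppp3ca had a change of 0.18 (adjusted p = 0.012), which turned to −0.10 under scaling by library totals, where the median of all genes went from 0.05 to −0.21. Ppp3r1 (−0.06), Nfatc3 (−0.06) and Nfatc4 (−0.21) did not pass the threshold over both strains. For Nfatc4 the value was 0.40 in C57BL/6J (adjusted p = 0.202) and −0.83 in DBA/2J (adjusted p = 0.0195), and the difference between strains, −1.23, had an adjusted p of 0.0503. Under scaling by library totals Ppp3r1 and Nfatc3 passed as lower, at −0.33 and −0.34, as did Nfatc4 at −0.49. The libraries did not overlap in both strains for 4 of the 9 genes (Rcan1, Nfatc1, Nfatc2 and Ppp3cb), against 65.2% of all genes.

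Other measures moved with normoxia. Proximal tubule markers summed to 5564 ± 1345 CPM (SD, n = 3) in C57BL/6J normoxia against 401 ± 98.1 in controls, and to 11220 ± 592 CPM against 1094 ± 421 in DBA/2J. Mitochondrial genes took 23.9% against 6.83% of counts in C57BL/6J and, for DBA/2J, 12.3% against 3.52%. T cell markers summed to 10.1 CPM in C57BL/6J and, for DBA/2J, 21.1 CPM. Of the 5, 4 rose while 0 fell, where 42.4% of all genes rose and 39.7% fell. Thick ascending limb markers stood at 12090 against 2915 CPM in C57BL/6J. In DBA/2J they stood at 2991 ± 1140 against 1864 ± 1018 CPM, and these libraries overlapped. Macrophage markers stood at 196.1 against 80.8 CPM in C57BL/6J and at 146.9 against 96.3 CPM in DBA/2J. Lower under normoxia were endothelial markers, at 632.6 against 1087 CPM and at 372.1 against 661.7 CPM, and podocyte markers, at 440.6 against 679.8 CPM and at 280.5 against 429.4 CPM. Cd3e was at 0 to 4 counts in the C57BL/6J 24 h controls, and Cd3d at 0 or 1 count in those of DBA/2J. Markers with so few control reads may have entered the test only through normoxia, which limits the count of T cell markers that rose. The part of cell composition in the changes of the 9 genes was not tested.

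Rcan1 was highest under normoxia-hyperoxia, which was set against the same 24 h controls as normoxia. It was at 1289, 744 and 1318 CPM in C57BL/6J and, for DBA/2J, at 749, 1041 and 1183 CPM, all above the 24 h controls. The log2 fold change was 2.24 (SE 0.15, adjusted p = 4.03e-08 by edgeR), or 4.72 times the control, with 2.46 in C57BL/6J and, for DBA/2J, 2.02. Rcan1 was joined by Nfatc2, up by 1.45 (SE 0.12, adjusted p = 3.54e-08), and Rcan2, up by 1.24 (SE 0.11, adjusted p = 1.34e-07). Nfatc2 reached 17.6, 25.8 and 17.4 CPM in C57BL/6J and, for DBA/2J, 18.4, 17.6 and 16.04 CPM. Rcan2 reached 38.97, 32.05 and 43.8 CPM in C57BL/6J and, for DBA/2J, 23.2, 19.8 and 28.7 CPM.

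Of the remaining genes 3 fell. Ppp3cb fell by 0.36 (adjusted p = 3.07e-04), Ppp3r1 fell by 0.27 (adjusted p = 9.24e-04) and Nfatc3 fell by 0.22 (adjusted p = 0.00397). Ppp3ca (0.08), Nfatc1 (−0.05) and Nfatc4 (−0.05) did not pass the threshold, though with library totals Nfatc1 passed as lower, at −0.22, where the median of all genes was −0.17. In all, 6 of the 9 genes changed, 3 up and 3 down, against 68.2% of 17256 genes tested (34.1% each way), and for 5 (Rcan1, Rcan2, Nfatc2, Ppp3cb and Ppp3r1) the libraries did not overlap in either strain, against 48.6% of all genes. None of the 9 genes differed between strains in this response by edgeR's interaction test, where 1.43% of all genes were called. At an unadjusted p under 0.05, 0 of the 9 and 2657 of the 17256 genes passed. Without the shallowest library, the change of Rcan1 was 2.22, that of Nfatc2 1.45 and that of Rcan2 1.29. T cell markers, summed, were at 10.8 CPM in C57BL/6J and, for DBA/2J, 17.4 CPM. All 5 rose against the controls, where 34.1% of all genes did. Markers with few control reads may have entered the test only through normoxia-hyperoxia, so this count is no measure of T cells. Proximal tubule markers summed to 149 ± 29.9 and 599.8 ± 136 CPM. Other tubule marker sums were above the 24 h controls, with thick ascending limb at 11200 against 2915 CPM and distal convoluted tubule at 5457 against 689 CPM in C57BL/6J. In DBA/2J these were 6867 against 1864 CPM and 6294 against 1288 CPM. Macrophage markers stood at 171.1 against 80.8 CPM in C57BL/6J and at 271.6 against 96.35 CPM in DBA/2J. Podocyte markers stood at 951.1 against 679.8 CPM in C57BL/6J and at 794.5 against 429.4 CPM in DBA/2J. Endothelial markers were at 1087 CPM in both C57BL/6J groups and at 1074 against 661.7 CPM in DBA/2J. The mitochondrial share was 14.1% against 6.83% in C57BL/6J and, for DBA/2J, 13.7% against 3.52%. The part of cell composition in the changes was not tested.

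Between normoxia-hyperoxia and normoxia, the comparison within the oxygen arm that uses no controls, Rcan1 rose by 4.30 on the log2 scale (SE 0.16, adjusted p = 4.92e-11 by edgeR), or 19.8-fold. The rise was 4.38 in C57BL/6J and, for DBA/2J, 4.23. Nfatc2 rose by 0.86 (adjusted p = 4.2e-06), Nfatc1 by 0.58 (adjusted p = 6.73e-05) and Rcan2 by 0.35 (adjusted p = 0.0109). For Rcan2 the value was 0.12 in C57BL/6J (adjusted p = 0.517), where the libraries overlapped, and 0.58 in DBA/2J (adjusted p = 0.00559), where they did not, and the difference between strains did not pass the threshold (0.46, adjusted p = 0.167). Ppp3r1 fell by 0.20 (adjusted p = 0.00727), a call lost under scaling by library totals (−0.11, adjusted p = 0.102). Its value was −0.11 in C57BL/6J (adjusted p = 0.304), where the libraries overlapped, and −0.30 in DBA/2J (adjusted p = 0.00642), where they did not, and the difference between strains did not pass the threshold (−0.20, adjusted p = 0.286). The 5 genes called, 4 up and 1 down, compare with 73.5% of 17228 genes tested (37% up and 36.5% down), and for 3 (Rcan1, Nfatc1 and Nfatc2) the libraries did not overlap in either strain, against 53.8% of all genes. Without DBA/2J normoxia-hyperoxia replicate 3 the adjusted p of Rcan2 was 0.0539. Proximal tubule markers summed to 5564 CPM under normoxia and 149 CPM under normoxia-hyperoxia in C57BL/6J, and to 11220 and 599.8 CPM in DBA/2J. T cell markers stood at 10.1 and 10.8 CPM in C57BL/6J and at 21.1 and 17.4 CPM in DBA/2J. Endothelial markers stood at 632.6 and 1087 CPM in C57BL/6J and at 372.1 and 1074 CPM in DBA/2J, and macrophage markers at 196.1 and 171.1 CPM and at 146.9 and 271.6 CPM. The part of cell composition was not tested.

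Nfatc4 differed between strains in this comparison, with a log2 difference between responses of 1.4 (adjusted p = 0.0383, 18.2% of all genes called). It was −0.52 in C57BL/6J, from 3.73, 1.98 and 2.91 to 1.70, 2.81 and 1.43 CPM, where the libraries overlapped. It was 0.88 in DBA/2J, from 1.63, 1.16 and 1.15 to 2.52, 2.62 and 2.58 CPM, where they did not. This call was lost in 9 of 12 fits that left out a library, with adjusted p up to 0.1. It held without C57BL/6J normoxia replicate 2, DBA/2J normoxia replicate 1 or C57BL/6J normoxia-hyperoxia replicate 2.

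The strains were compared with each other within the controls and within the oxygen conditions. Rcan2 was lower in DBA/2J than in C57BL/6J in the 6 h controls, by −0.48 on the log2 scale (adjusted p = 0.00932), the only one of the 9 genes called there, where 26.2% of all genes were. Under scaling by library totals its adjusted p was 0.0504. In these controls thick ascending limb markers (9336 and 4509 CPM) and endothelial markers (1169 and 723.7 CPM) were also lower in DBA/2J. So was the mitochondrial share (15.4% and 8.16%). Proximal tubule markers (3588 and 5150 CPM) and T cell markers (8.33 and 16.1 CPM) were higher in DBA/2J. The part of these measures was not tested. Under normoxia Rcan2 (−1.12, adjusted p = 6.03e-05), Nfatc2 (−0.75, adjusted p = 0.00137) and Nfatc4 (−1.05, adjusted p = 0.0116) were lower in DBA/2J, 3 of the 9 genes against 46.8% of all genes. Without C57BL/6J normoxia replicate 1 the adjusted p of Nfatc4 was 0.0686. Thick ascending limb markers summed to 12090 CPM in C57BL/6J normoxia and 2991 CPM in DBA/2J normoxia, while proximal tubule markers (5564 and 11220 CPM) and T cell markers (10.1 and 21.1 CPM) were higher in DBA/2J. The mitochondrial share was 23.9% and 12.3%, and the part of these in the strain differences was not tested. Under normoxia-hyperoxia Rcan2 was again lower (−0.66, adjusted p = 0.00655), 1 of the 9 genes against 25.7% of all genes. In these groups thick ascending limb markers summed to 11200 CPM in C57BL/6J and, for DBA/2J, to 6867 CPM, proximal tubule markers to 149 and 599.8 CPM and T cell markers to 10.8 and 17.4 CPM, and their part was not tested. In the 24 h controls edgeR called 0 of the 9 genes, where 22.2% of all genes were called, and 1 of the 9, Rcan2 at −0.30 (adjusted p = 0.112), had an unadjusted p under 0.05. DESeq2 also called 0 of the 9 there, and 4055 of the 16962 genes. Without DBA/2J 24 h control replicate 3 Rcan2 was called there too (adjusted p = 0.0367).

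Other genes of the pathway were counted from 3 lists, the calcineurin and NFAT machinery (24 genes), store-operated calcium entry and release (15 genes) and genes known as NFAT targets in lymphocytes or other cells (16 genes). With cyclosporin A at 24 h edgeR called 0 of the 22 machinery genes, 0 of the 15 calcium genes and 0 of the 10 targets that passed the filter on low counts, with 1, 3 and 2 of them at an unadjusted p under 0.05, where 0% of all genes were called and 1107 of 16887 had such a p. The median log2 changes were 0.04, −0.01 and 0.23, beside 0.01 over all genes, and 8 of the 10 targets were above 0. The smallest p among the targets was that of Myc, a growth regulator, at 0.23 (adjusted p = 0.228 by edgeR). DESeq2 gave Myc an adjusted p of 0.000907, and over the alternatives its adjusted p ranged from 0.000907 to 0.876. Egr2, an early response transcription factor, stood at 0.45 (adjusted p = 0.642) and Tnf, the inflammatory cytokine, at 0.38 (adjusted p = 0.799). Of the machinery Nfat5, the calcineurin-independent member of the NFAT family, had −0.13 (adjusted p = 0.67), and of the calcium genes Atp2a2, the calcium pump of the endoplasmic reticulum, had −0.14 (adjusted p = 0.656). Il2, the classical target in T cells, was at 0 to 2 counts in all control libraries. Il2, and below Csf2 and Ifng, were named after their counts were seen.

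At 6 h of cyclosporin A edgeR called 0 of 23 machinery genes, 0 of 15 calcium genes and 0 of 11 targets, with 0, 2 and 2 at an unadjusted p under 0.05, where 0% of all genes were called and 734 of 16538 had such a p. Egr3 stood at 0.68 (adjusted p = 0.777). With tunicamycin at 24 h Atp2a2 rose by 0.41 (adjusted p = 0.00609), the only one of 22 machinery genes, 15 calcium genes and 10 targets that passed, where 1.38% of all genes did.

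Between 6 h and 24 h in the controls 13 of the 22 machinery genes rose and 6 fell, 4 of the 15 calcium genes rose and 7 fell, and 4 of the 11 targets tested rose and 2 fell. Over all genes 34.7% rose and 37.4% fell, so the share of targets that rose is near that of all genes. Homer3, a scaffold that binds NFAT, rose by 1.72 and Gsk3b, a kinase that sends NFAT out of the nucleus, rose by 0.85. The calcium release channels Itpr1 and Itpr2 both fell by 0.87. Of the targets Ptgs2, which encodes an inducible cyclooxygenase, rose by 2.08, and the nuclear receptor Nr4a1 fell by 1.75. The checkpoint receptor Ctla4 was at 6 to 13 counts in each 6 h library and 0 to 5 in each 24 h library, and passed as lower. With so few 24 h reads Ctla4 entered the test only through the 6 h libraries. The target counts carry this limit when set beside the shares of all genes.

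Under normoxia 15 of the 22 machinery genes fell and 6 rose, where 39.7% of all genes fell and 42.4% rose. The 8 targets tested all fell, but a target with few reads entered the test only through the group where it was high, so this count does not describe the list. Csf2, at 0 or 1 count in the normoxia libraries, was at least 6.77-fold lower (against 3 counts per library). Ptgs2 went from 149 ± 25.5 CPM (SD, n = 3) to 0.827 ± 0.519 CPM in C57BL/6J and, for DBA/2J, from 115 ± 21.7 to 0.692 ± 0.120 CPM. Myc went from 198 ± 10.2 to 4.54 ± 0.931 CPM and from 178 ± 3.14 to 6.49 ± 0.375 CPM, and the coagulation starter F3 from 429 ± 11.4 to 16.2 ± 1.31 CPM and from 506 ± 34.4 to 33.6 ± 2.34 CPM. Homer3 (−2.05), Gsk3b (−1.42) and Crtc3 (−1.33), a CREB coactivator that calcineurin activates, were the machinery genes with the smallest p. The calcium genes did not move one way, with 7 higher and 5 lower, such as Itpr1 at 0.86 and Itpr3 at −2.21.

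Under normoxia-hyperoxia against 24 h controls, 8 of 12 targets tested rose and 2 fell, where 34.1% of all genes did each, though entry by few reads touches this count too. Tnf rose by 1.57, while Ptgs2 and Myc, which had fallen under normoxia, were lower here too, at −2.19 and −1.08. Ifng, at 0 to 2 counts in the controls and 3 to 26 here, was at least 5.58-fold higher. Of 23 machinery genes 10 rose and 12 fell, with Calm2, a calmodulin gene, at 0.73 and Fkbp1a, the binding partner of tacrolimus, at −0.97. Of the 15 calcium genes 7 rose and 4 fell, Itpr2 by 0.99 and Itpr1 by 0.72 among those that rose. Against normoxia the 12 targets tested rose, and again some, such as Csf2 and Ctla4 with at most 2 counts in any normoxia library, entered only through the normoxia-hyperoxia libraries, so the share of all genes that rose there, 37%, is no measure for them. F3 rose by 4.68 and Ptgs2 by 5.21, and Myc rose by 4.00.

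**Figure D5:**
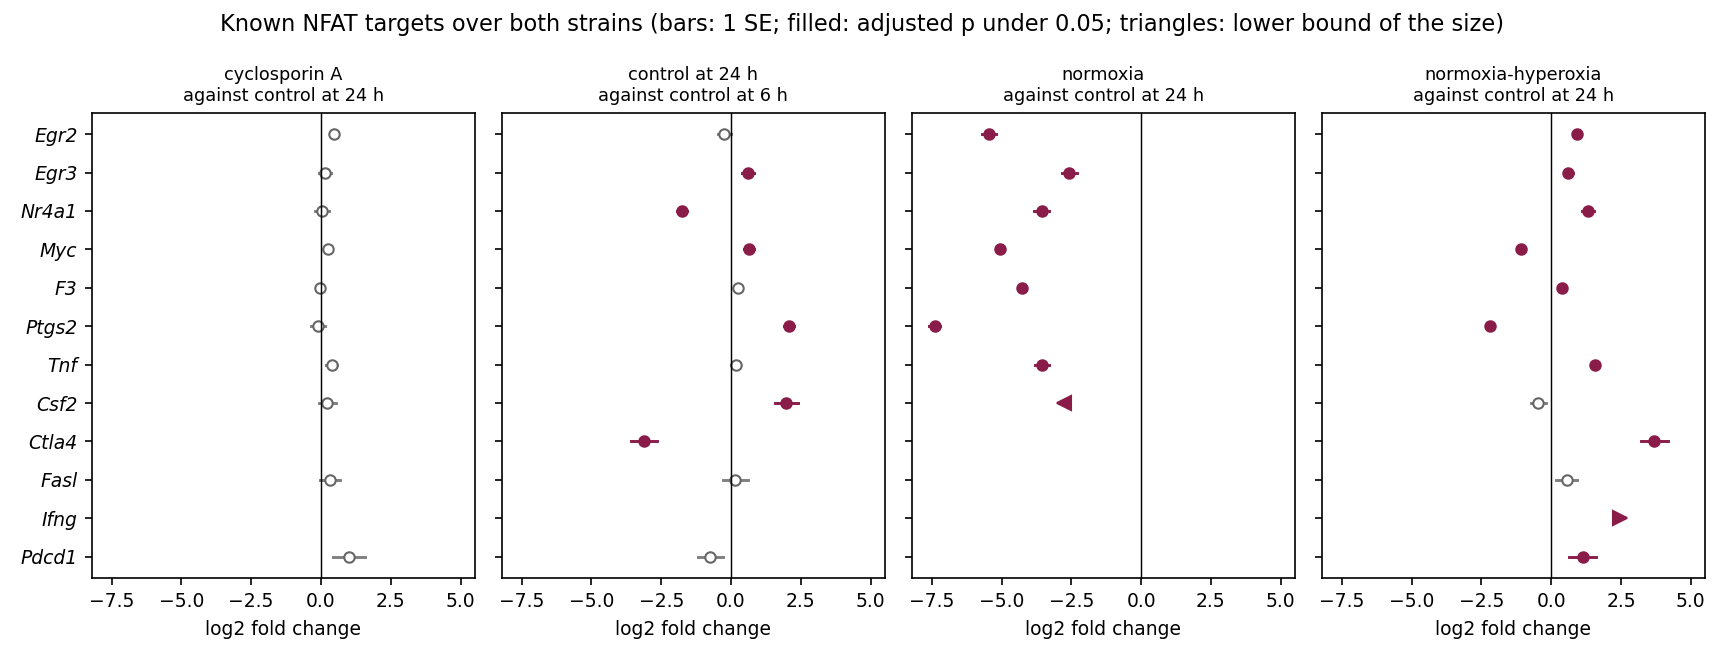
Log2 fold changes over both strains of the 12 listed NFAT targets that passed the filter in at least 1 panel, with bars of 1 SE; filled points passed an adjusted p under 0.05, and triangles mark lower bounds for genes at 3 counts or fewer in every library of a condition. None is filled with cyclosporin A at 24 h, and Ptgs2 and Myc lie below 0 in both oxygen conditions.

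Over the 16 group means, 13082 genes were compared with Rcan1, Ppp3ca and Nfatc3, and predicted or unnamed genes were passed over in the ranking. Rcan1 was most like Icam1, a leukocyte adhesion molecule, with a Pearson correlation of log2 CPM of 0.985. Arl6ip5 (0.982), a protein of the endoplasmic reticulum, and Dnajb1 (0.975), a heat shock co-chaperone, came next. Ppp3ca was most like Wdr78 (0.932), Ppp2r3a (0.930), a regulatory subunit of another phosphatase, and Slc2a9 (0.928), a urate transporter. Nfatc3 was most like Tmed2 (0.952), a cargo receptor of the secretory pathway, Pop1 (0.937), a subunit of ribonuclease P, and Thnsl1 (0.934). Among the 9 genes, the closest pair was Nfatc2 and Rcan2, with a correlation of 0.933, and Ppp3ca and Nfatc1 were the most opposed, at −0.836. These correlations describe 16 points that share libraries, normalization and the differences between times and oxygen conditions.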

How the data were processed

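Raw counts per gene were deposited by the authors in 1 table for 48 libraries. The submitters' processing notes name GRCm38, bcl2fastq 2.20.0, FastQC 0.11.8, STAR 2.7.9a and featureCounts 1.5.1, without role or order. The counts, with no normalization, were tested as deposited. Of 55487 identifiers 55141 were matched to symbols. Every comparison used only its 12 libraries (4 groups of 3) in edgeR 4.0.16 (R 4.3.3, limma 3.58.1), using the quasi-likelihood F test, TMM factors and filterByExpr. The fits had 8 residual degrees of freedom. P-values were adjusted by Benjamini-Hochberg over all genes tested, at a threshold of 0.05. CPM values were scaled by TMM factors over all 48 libraries (0.862 to 1.155). Depth was 5619309 to 25137581 counts. No libraries of a group agreed within sampling noise (chi-square per degree of freedom 5.76 or more). The fits were tested on simulated data. Alternatives were DESeq2 1.42.0, its size factors, no filter, a fit of all 48 libraries, a replicate block and leaving out each library. Scaling by library totals was chosen after seeing the data. The 9 genes and all lists were chosen with earlier results of these data known. Named are all 9 genes and, of each list, genes among the 3 smallest p-values of a comparison, and Il2, Csf2 and Ifng were named after their counts were seen. Promoter windows came from RefSeq on GRCm38.p6, and gene positions from GENCODE M21.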

Additional observations from a re-analysis of the deposited data

Results flagged for a closer look

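Strain differences in response, by the interaction test of edgeR, were called for 2 of the 9 genes under normoxia, where 17% of all genes were, and for 1 of the 9 between the oxygen conditions, where 18.2% were. Under normoxia against 24 h controls, Rcan2 had a DBA/2J minus C57BL/6J difference of −0.81 on the log2 scale (adjusted p = 0.0157), which stayed between −1.01 and −0.67 when any 1 library was left out and was called in each of those fits. Nfatc2 had a difference of −0.66 in the same comparison (adjusted p = 0.0345). Its call was lost without C57BL/6J control replicate 1 or 3, without C57BL/6J normoxia replicate 2, and without any one of the 3 DBA/2J normoxia libraries, with values from −0.81 to −0.53. In the fit of all 48 libraries its adjusted p was 0.178. Nfatc4 had a difference of 1.4 between normoxia-hyperoxia and normoxia (adjusted p = 0.0383). It ranged from 1.15 to 1.75 when 1 library was left out, with adjusted p from 0.0116 to 0.1. Nfatc4 had 15 to 138 counts per library over the series.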

How the results depend on the processing

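The 108 log2 fold changes of the 9 genes were recomputed in 648 alternative values, of which 18 turned sign, and in 1296 values that left out 1 library, of which 39 turned sign. Of the 30 results with a turned sign, 2 were called, both of Ppp3ca, and the cause was not tested. Under scaling by library totals Ppp3ca turned to 0.037 between 24 h and 6 h controls, −0.098 under normoxia, −0.090 under normoxia-hyperoxia, 0.009 between the oxygen conditions and −0.010 with cyclosporin A at 6 h. The strain difference under normoxia turned to −0.029 for Ppp3ca, −0.044 for Ppp3cb and −0.014 for Ppp3r1 with library totals, to −0.050, −0.064 and −0.033 with no filter, and to −0.037, −0.051 and −0.020 in one fit of 48 libraries. In the 6 h controls the strain differences of Nfatc1 and Nfatc3 were 0.14 and 0.14 with library totals and 0.023 and 0.018 with no filter. Without a filter the 24 h against 6 h calls of Ppp3ca and Ppp3r1 were lost (adjusted p = 0.0516 and 0.0548).

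Leaving out 1 library gave these ranges where a sign turned. With cyclosporin A they were −0.016 to 0.40 for Nfatc4 at 24 h, and at 6 h −0.070 to 0.016 for Nfatc3, −0.13 to 0.067 for Rcan1 and −0.074 to 0.18 for Nfatc2. With tunicamycin at 24 h they were −0.062 to 0.014 for Ppp3r1, −0.017 to 0.21 for Nfatc2 and −0.007 to 0.026 for Nfatc3. With tunicamycin at 6 h they were −0.019 to 0.067 for Ppp3cb, −0.028 to 0.020 for Ppp3r1, −0.11 to 0.092 for Rcan1 and −0.054 to 0.21 for Nfatc2. The range was −0.22 to 0.048 for Nfatc4 under normoxia-hyperoxia and −0.014 to 0.083 for Ppp3cb between the oxygen conditions. Strain differences in 6 h controls were −0.084 to 0.077 for Nfatc1, −0.096 to 0.070 for Nfatc3 and −0.017 to 0.084 for Ppp3ca. In 24 h controls they were −0.013 to 0.32 for Nfatc4, −0.16 to 0.029 for Nfatc2, −0.11 to 0.043 for Ppp3ca and −0.026 to 0.13 for Ppp3r1. Under normoxia they were −0.043 to 0.086 for Ppp3cb, −0.064 to 0.022 for Rcan1, −0.016 to 0.14 for Ppp3r1 and −0.22 to 0.062 for Nfatc1.

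The number of the 9 genes called between strains ranged from 1 to 2 in 6 h controls, 0 to 1 in 24 h controls and 1 to 2 under normoxia-hyperoxia. Over all genes, tunicamycin at 24 h gave 233 calls, 527 with DESeq2, 395 without a filter and 78 to 344 with a library left out. Cyclosporin A gave 22 calls at 24 h and 51 at 6 h with DESeq2. Pairing by replicate number was checked over 6 pairs a comparison, and mean correlations were 0.014 to 0.164, with 0 to 5 of the 6 pairs above 0.1. Since no comparison had all 6 above 0.1, the numbers were not taken to pair the samples, although all 3 pairs of 1 strain passed it in some comparisons, as in DBA/2J between the oxygen conditions (0.303, 0.13 and 0.254). With a replicate block the 9 genes gave 7 calls between 24 h and 6 h controls (11997 of all genes), 6 under normoxia (14162), 6 under normoxia-hyperoxia (11884), 5 between the oxygen conditions (12765) and 0 with either drug, the same genes as without it. The block moved tunicamycin at 24 h to 314 calls and the adjusted p of the Nfatc4 strain difference to 0.0565. Low counts limit Nfatc4 most.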
